A study of Mus musculus with 6 samples.

Results

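The genes described here are 49 mouse genes that act in mitosis, from entry through the kinetochore and the spindle checkpoint to cytokinesis. They were chosen by name from their known functions, with earlier results of these data known. All 49 were found by symbol as rows of the deposited table, among its 23718 listed genes. The table holds normalized read values for laser-captured regions of the incisor of mice 1 month old, from C57BL/6 mice by the labels and a mixed background by the methods. Tissue of Gli1-CreER;tdT mice gave the 3 samples of the mesenchymal stem cell (MSC) region, and that of Axin2-CreER;tdT mice the 3 samples of the transit amplifying cell (TAC) region, all mice having been given tamoxifen to switch on the red reporter. Both groups carry the reporter, which the methods place at the Rosa26 locus, and a tamoxifen-inducible Cre, under the control of Gli1 in one and Axin2 in the other, so the driver differs with the region. A region was cut from sections, so any cell type lying in it contributed RNA. In such samples a smaller share of dividing cells and less RNA per dividing cell cannot be told apart.

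Cells enter mitosis when CDK1, held by its A- and B-type cyclins and freed of inhibitory phosphate by CDC25 phosphatases, becomes active. Kinetochores, protein assemblies built on the centromeric histone CENP-A, then attach chromosomes to spindle microtubules through the NDC80 complex. Unattached kinetochores keep the spindle checkpoint on, which holds the anaphase-promoting complex (APC/C) and its coactivator CDC20 in check until every chromosome is attached. The APC/C then marks securin and the cyclins for destruction, separase cuts cohesin, and the central spindle directs cytokinesis. Most of these genes are transcribed in waves late in the cell cycle, so their RNA marks cycling cells. In the continuously growing incisor, TACs are the rapidly dividing progeny of slowly cycling MSCs, and the comparison asks which genes distinguish these populations.

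Replicate 3 stood apart from replicates 1 and 2 in both groups, which gives 2 library sets of unequal depth. The labels do not name this division. Replicates 1 and 2 had 20203159 to 25567244 estimated reads and 8.28% to 9.07% of them in mitochondrial ribosomal RNA. Replicate 3 had 59793645 estimated reads in MSC and 108156380 in TAC, with 0.236% and 0.112% in mitochondrial ribosomal RNA. Of the 23718 listed genes, 42.6% had no read in MSC replicate 3 and 27.8% in TAC replicate 3, against 6.38% to 7.88% in the other 4 libraries. Gli1, the MSC driver gene, measured 256, 245 and 422 in MSC and 153, 141 and 396 in TAC. Axin2, the TAC driver gene, measured 58.3, 47.98 and 12.01 in MSC and 56.8, 63.9 and 34.1 in TAC, and for neither gene did the groups separate (adjusted p = 0.718 for Gli1 and 0.758 for Axin2, limma). In replicates 1 and 2 alone Gli1 was lower in TAC, by a log2 difference of -0.77 at an adjusted p of 1.52e-11, and Axin2 had 0.18 with an adjusted p of 0.117 (limma). The values of a gene are listed in the order of replicates 1, 2 and 3.

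The 49 genes together took 0.165%, 0.161% and 0.134% of protein-coding reads in the MSC libraries, in replicate order. In the TAC libraries the share was 0.657%, 0.660% and 0.323%, so the lowest TAC library lay above the highest MSC library. The median value of the 49 genes was 6.42, 6.00 and 3.92 in the MSC libraries and 24.0, 26.4 and 18.4 in the TAC libraries. Values are scaled per library and not divided by gene length, so they are compared here between libraries within a gene. All 49 genes passed the filter on low values (a mean of 1 or more) and were tested with limma on log2(value + 1), a scale on which the fold of a low gene comes out too small.

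Every one of the 49 fitted log2 fold changes, TAC minus MSC, was above 0, and 44 were above 1. Their median was 2.04, with a range from 0.26 for Pttg1 to 2.96 for Bub1 (2.19 in replicates 1 and 2, where Ccnb2 was highest at 2.59), beside a median of 0.026 over the 15391 genes tested. At an unadjusted p under 0.05, 41 of the 49 (83.7%) were higher in TAC and none was lower, while 5.42% of all genes tested were higher in TAC. All 3 TAC values lay above all 3 MSC values in 40 of the 49 (81.6%), against 12.3% of all genes tested. The 9 genes whose groups overlapped were Mki67, Ccna2, Foxm1, Bub1b, Bub3, Cenpe, Cenpf, Pttg1 and Smc2. With Benjamini-Hochberg adjustment over all genes tested, only 2 of the 49 passed 0.05, Cdk1 and Spag5, and 0.039% of all genes tested passed with a higher level in TAC. When all genes tested were ranked from the highest fold change toward TAC downward, 16 of the 49 were among the first 100, and 5 were among the 100 smallest p-values. Of the 16, Nek2, Aurkb, Cdca8, Bub1, Bub1b, Ttk, Cenpe, Sgol1, Aspm and Anln had at most 1 read in MSC replicate 3. The rank of such a gene depends on the value added before the logarithm.

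**Figure D1:**
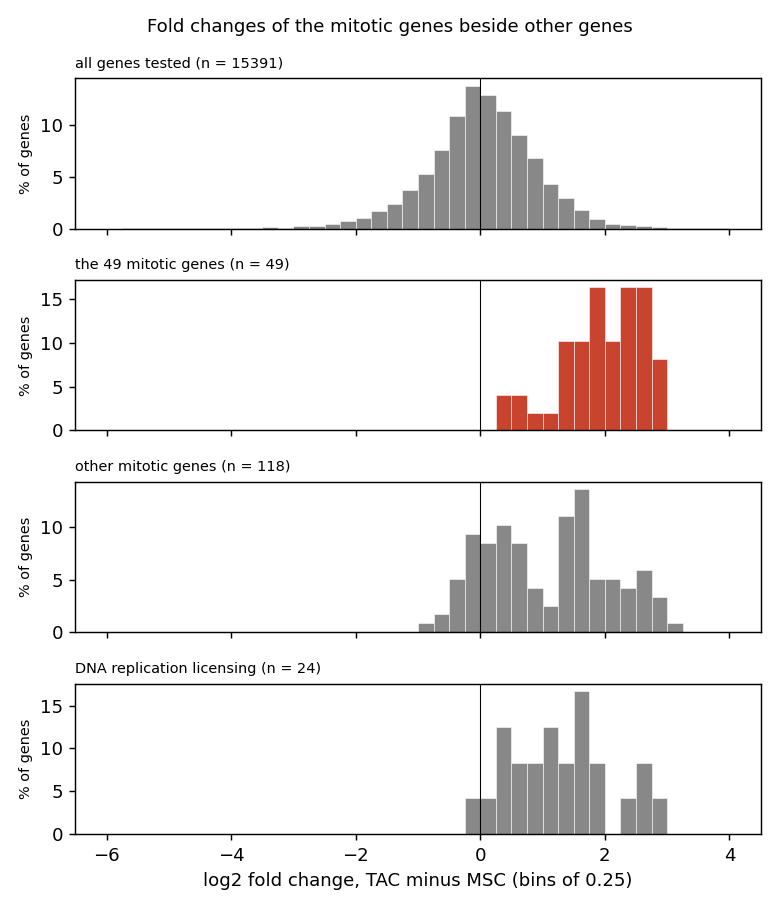
Share of genes (%, vertical axes) by fitted log2 fold change, TAC minus MSC, in bins of 0.25, for all 15391 genes tested, the 49 mitotic genes, 118 other mitotic genes and 24 DNA replication licensing genes. The 49 genes have a median of 2.04 and none lies below 0, while all genes tested centre on 0.026.

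The count of genes passing the adjusted threshold moved with how replicate 3 was treated. With the replicate number as a block, 6 of the 49 passed (Mki67, Cdk1, Birc5, Cenpa, Tpx2 and Spag5), against 0.604% of all genes tested. With the library set as a term in the fit, 40 of 49 passed, against 5.22%. Within replicates 1 and 2 alone, 48 of 49 passed, against 21.4%, and the exception was Pttg1. Without MSC replicate 3, 18 of 49 passed, against 0.612%, and without any one of the other 5 libraries none did (limma), with 29 to 43 higher in TAC at an unadjusted p under 0.05, against 2.61% to 5.6% of all genes tested. With replicates 1 and 2 averaged as 1 sample in each group none of the 49 passed either (limma). In that fit 25 were higher in TAC at an unadjusted p under 0.05, against 1.73%. Where none of the 49 passed, no gene tested passed with a higher level in TAC. In none of the fits above did one of the 49 pass with a higher level in MSC.

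In replicates 1 and 2 all 49 were higher in TAC, with a median log2 fold change of 2.02, quartiles at 1.80 and 2.15, and 45 of 49 above 1. On the linear scale the ratio of TAC to MSC in those replicates ran from 1.28 for Cdc25b to 7.88 for Ccnb2, with a median of 4.36. In replicate 3, where each group has 1 library, 43 of 49 were higher in TAC, the median was 1.95 and the quartiles lay at 1.12 and 3.35. The 6 genes that were not higher in TAC replicate 3 were Ccna2, Foxm1, Bub3, Cenpf, Pttg1 and Smc2. The same fold changes were thus more tightly grouped in replicates 1 and 2 than in replicate 3.

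MSC replicate 3 had no read for 11 of the 49 genes, namely Cdc25c, Nek2, Aurkb, Bub1, Bub1b, Cenpe, Ska1, Sgol1, Aspm, Anln and Ncapg, and 1 read for Cdca8 and Ttk. This is 22.4% of the 49 genes, beside 21.0% of all genes tested with no read in that library. A gene without a read is listed there at 0.00666, and 3 reads, the limit that a count of 0 allows, would be 0.0266. Its fitted fold change therefore depends on the pseudocount, and the value from replicates 1 and 2 is given where the fold change of such a gene is described. The 36 genes with more than 1 read in MSC replicate 3 had a median log2 fold change of 1.78 in the fit, 2.02 in replicates 1 and 2, and 1.50 in replicate 3. These 36 were selected on a measured value, so their medians are only descriptive.

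The difference between the library sets was called in 29 of the 49 genes by the interaction of group and set (limma, adjusted p under 0.05), whose error comes from the spread between replicates 1 and 2 alone. Replicate 3 has 1 library in each group, so these calls assume that it varies as little as they do and do not show a difference between library sets. The called difference was smaller in replicate 3 for 15 genes (30.6%), against 23.3% of all genes tested, and larger for 14 (28.6%), against 33.8%. Both shares were thus near those of all genes, so the count is no result about the 49. Of the 14 with a larger difference, 10 had at most 1 read in MSC replicate 3. TAC replicate 3 lay below both other TAC libraries in 37 of the 49 genes, and MSC replicate 3 below both other MSC libraries in 33. Among all genes tested the same held for 53.9% in TAC and 59.2% in MSC.

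**Figure D2:**
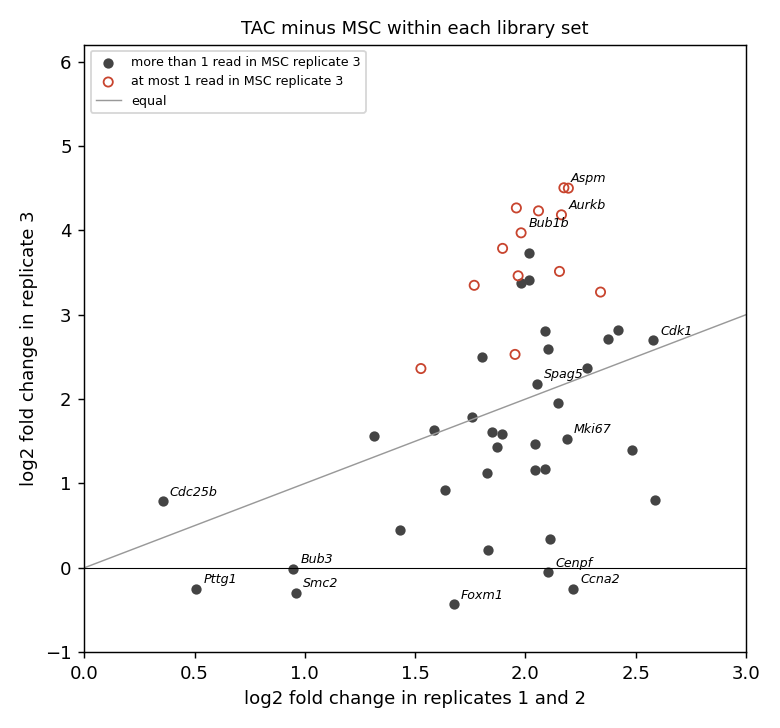
Log2 fold change, TAC minus MSC, of each of the 49 genes in replicates 1 and 2 (horizontal axis, mean of both) against replicate 3 (vertical axis), with a line of equal values. Open circles are the 13 genes with at most 1 read in MSC replicate 3, all above the line, and the 6 genes below 0 on the vertical axis are named.

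Many genes of this kind share promoter elements. The cell cycle genes homology region (CHR), bound by the MuvB core of the DREAM and B-MYB complexes, and the CCAAT box, bound by NF-Y, are known from mitotic genes. RefSeq promoter windows on GRCm38.p6, 250 bases before to 50 after the start, were found for 40 of the 49 genes (43 windows, as 3 genes have 2 starts), and 9 had no entry. The letters searched on either strand were TTTGAA and TTCGAA for the CHR and CCAAT for the box, none of which contains another. TTTGAA or TTCGAA occurred in 33 of 43 windows (76.7%), against 19.2% of the 32851 windows of the whole table. At least 1 CCAAT occurred in 79.1% against 37.4%, at least 2 in 53.5% against 11.7%, and at least 2 with a CHR in 48.8% against 2.31%. Of the 38 TTTGAA matches in the windows of the 49 genes, 27 (71.1%) lay between 30 bases before and 50 after the start, against 20.1% of matches over the whole table, a stretch that was chosen after the positions were seen. Of the 77 CCAAT matches, 59 (76.6%) lay between 130 before and 10 after, against 56.5%, a stretch also chosen with the positions known. The windows of Bub3, of Ect2 and of Prc1 overlap each other, so some matches are counted more than once. A match of letters is a description and not evidence of binding.

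The windows of 4 genes are shown because they frame the expression results: Cdk1 had the smallest adjusted p, Bub1 the largest and Pttg1 the smallest fold change in the fit over all samples, and Ccnb2 carries several motifs and had the largest fold change in replicates 1 and 2. Each is read on the strand of its gene, with matches to the CHR forms and the CCAAT box in capitals (ATTGG and TTCAAA are the same motifs on the other strand). The last 50 bases follow the RefSeq start.
Cdk1, chr10:69352863-69353162, minus strand: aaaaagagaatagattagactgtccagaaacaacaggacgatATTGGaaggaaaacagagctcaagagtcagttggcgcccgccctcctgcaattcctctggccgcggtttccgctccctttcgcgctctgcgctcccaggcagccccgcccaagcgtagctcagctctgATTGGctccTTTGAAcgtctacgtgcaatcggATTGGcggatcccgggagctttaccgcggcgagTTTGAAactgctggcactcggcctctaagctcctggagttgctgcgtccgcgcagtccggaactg
Ccnb2, chr9:70421505-70421804, minus strand: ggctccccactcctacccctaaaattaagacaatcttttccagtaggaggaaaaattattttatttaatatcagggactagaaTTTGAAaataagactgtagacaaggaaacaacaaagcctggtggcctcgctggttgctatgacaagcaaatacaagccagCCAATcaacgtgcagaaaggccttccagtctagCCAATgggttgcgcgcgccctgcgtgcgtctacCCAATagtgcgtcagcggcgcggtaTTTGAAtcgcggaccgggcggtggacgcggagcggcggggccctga
Bub1, chr2:127831810-127832109, minus strand: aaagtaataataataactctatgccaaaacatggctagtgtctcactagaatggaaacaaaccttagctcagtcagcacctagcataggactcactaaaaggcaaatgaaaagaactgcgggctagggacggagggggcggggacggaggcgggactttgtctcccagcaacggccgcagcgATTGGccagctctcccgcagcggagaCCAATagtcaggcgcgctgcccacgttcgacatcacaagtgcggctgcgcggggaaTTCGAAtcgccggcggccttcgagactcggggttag
Pttg1, chr11:43425932-43426231, minus strand: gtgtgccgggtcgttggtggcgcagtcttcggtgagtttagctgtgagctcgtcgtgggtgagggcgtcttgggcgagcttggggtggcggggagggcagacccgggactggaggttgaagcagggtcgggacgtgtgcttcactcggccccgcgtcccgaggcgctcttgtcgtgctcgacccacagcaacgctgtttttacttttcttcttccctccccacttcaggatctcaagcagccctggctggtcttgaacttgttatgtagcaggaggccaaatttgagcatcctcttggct
The Cdk1 window held 2 TTTGAA and 3 CCAAT, that of Ccnb2 2 TTTGAA and 3 CCAAT, and that of Bub1 1 TTCGAA and 2 CCAAT. The Pttg1 window lay wholly inside the span of the gene in the table, so the bases before that start were not searched, and its lack of these letters is not set beside its expression. The same position held for the window of Cdca8 and for 1 of the windows of Bub3, 3 of the 43 in all. Windows without any of the letters included that of Birc5, which had a log2 fold change of 2.55.

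**Figure D3:**
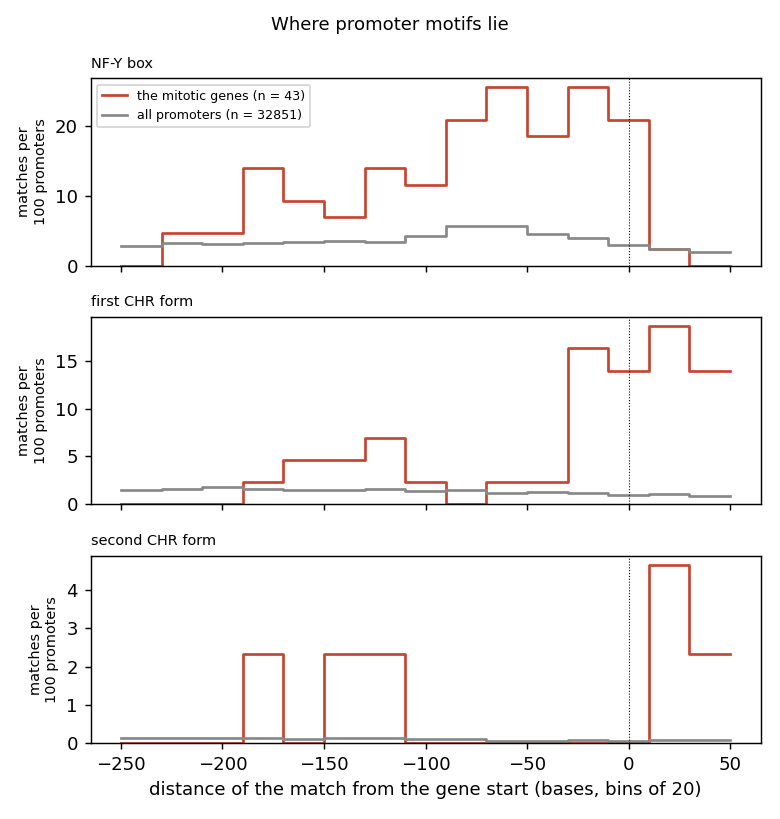
Matches per 100 promoter windows (vertical axes) by distance from the gene start in bins of 20 bases (horizontal axis, negative before the start), for the NF-Y box and both CHR forms, in the 43 windows of the 49 genes and in all 32851 windows. In the windows of the 49 genes 71.1% of matches to the first CHR form lie between 30 bases before and 50 after the start.

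Mki67 encodes Ki-67, which coats mitotic chromosomes and is the standard marker of proliferating cells, and Top2a encodes the topoisomerase that untangles replicated DNA. Mki67 measured 137, 130.1 and 41.5 in MSC and 593, 629.7 and 122 in TAC. Replicates 1 and 2 of TAC stood far above the other 4 libraries, while TAC replicate 3 lay just under both MSC replicates 1 and 2. The means were 103 ± 53.2 in MSC and 448 ± 283 in TAC (SD, n = 3), with a fitted log2 fold change of 1.97 ± 0.75 (SE) and an adjusted p of 0.361 (0.0442 with the replicate block). Top2a measured 42.6, 39.03 and 27.5 in MSC and 240.4, 225 and 74.2 in TAC, without overlap of the groups. Its means were 36.4 ± 7.89 in MSC and 179.7 ± 91.8 in TAC (SD, n = 3), with a fitted log2 fold change of 2.12 ± 0.49 (SE) and an adjusted p of 0.148. For both genes the difference was smaller in replicate 3, at 1.53 and 1.40 against 2.19 and 2.48 in replicates 1 and 2.

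Cdk1, the mitotic cyclin-dependent kinase, lies at chr10:69335146-69352938 on mm10 and had the smallest adjusted p of the 49. It measured 4.02, 3.51 and 3.92 in MSC and 25.7, 29.2 and 30.9 in TAC. The MSC values stayed within a narrow band and all TAC values lay several times above it. Its means were 3.82 ± 0.274 in MSC and 28.6 ± 2.65 in TAC (SD, n = 3), with a fitted log2 fold change of 2.62 ± 0.35 (SE) and an adjusted p of 0.039. The difference held in each set, at 2.58 in replicates 1 and 2 and 2.70 in replicate 3. The 18 alternative settings gave adjusted p-values for it from 1.12e-11 to 0.89. It missed 0.05 without the variance trend, with replicates 1 and 2 averaged, with voom, and without any one library other than MSC replicate 3.

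The cyclins that bind CDK1 behaved less evenly. Ccna2, which encodes cyclin A2 of S phase and mitotic entry, measured 10.8, 9.86 and 25.2 in MSC and 50.7, 52.2 and 21.1 in TAC. TAC replicate 3 lay below MSC replicate 3, so its groups overlapped. The means were 15.3 ± 8.64 in MSC and 41.3 ± 17.6 in TAC (SD, n = 3), with a fitted log2 fold change of 1.39 ± 0.51 (SE) and an adjusted p of 0.342. Ccnb1, for cyclin B1, measured 5.28, 3.01 and 11.3 in MSC and 19.9, 21.4 and 14.6 in TAC. Its groups were apart, but by little between the replicate 3 libraries. The means were 6.52 ± 4.26 in MSC and 18.6 ± 3.60 in TAC (SD, n = 3), with a fitted log2 fold change of 1.52 ± 0.51 (SE) and an adjusted p of 0.298. Ccnb2, for cyclin B2, had the largest difference of all 49 genes in replicates 1 and 2, at 2.59, and 0.80 in replicate 3.

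Among the activators, Cdc25b, a phosphatase that removes the inhibitory phosphate from CDKs, had the smallest fold change of this group. It measured 20.5, 26.2 and 20.6 in MSC and 28.3, 31.7 and 36.3 in TAC. Its groups did not overlap, yet all 6 values lay close together. The means were 22.4 ± 3.28 in MSC and 32.1 ± 4.03 in TAC (SD, n = 3), with a fitted log2 fold change of 0.50 ± 0.28 (SE) and an adjusted p of 0.548. Cdc25c, its relative at mitotic entry, was low throughout, at 2.93, 1.10 and 0.00666 in MSC and 5.82, 9.04 and 4.17 in TAC, with no read in MSC replicate 3. Foxm1, the forkhead factor that drives late cell cycle genes, measured 21.3, 21 and 42.9 in MSC and 69.6, 69.9 and 31.5 in TAC. The TAC values were higher in replicates 1 and 2 and lower in replicate 3. The means were 28.4 ± 12.5 in MSC and 57.01 ± 22.1 in TAC (SD, n = 3), with a fitted log2 fold change of 0.97 ± 0.44 (SE) and an adjusted p of 0.447. Of the 7 genes of this group 5 had an unadjusted p under 0.05, and the group median was 1.52.

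The 3 kinases of the spindle poles all had an unadjusted p under 0.05, with a median log2 fold change of 2.31. Plk1, the polo-like kinase that acts from centrosome maturation to cytokinesis, measured 3.10, 4.62 and 4.80 in MSC and 16.8, 15.8 and 16.8 in TAC. Both groups were narrow and well apart. The means were 4.18 ± 0.932 in MSC and 16.4 ± 0.547 in TAC (SD, n = 3), with a fitted log2 fold change of 1.77 ± 0.39 (SE) and an adjusted p of 0.142. Aurka, for the Aurora A kinase of the poles, measured 2.29, 2.41 and 1.63 in MSC and 14.9, 15.6 and 12.5 in TAC, with a fitted log2 fold change of 2.31 ± 0.43 (SE) and an adjusted p of 0.0981. Nek2, the kinase that separates centrosomes, measured 4.45, 2.81 and 0.00666 in MSC and 20.3, 18.3 and 10.5 in TAC. It had no read in MSC replicate 3, and its means were 2.42 ± 2.25 in MSC and 16.4 ± 5.18 in TAC (SD, n = 3). The fit gave a log2 fold change of 2.61 ± 0.72 (SE) and an adjusted p of 0.203, against 2.15 in replicates 1 and 2.

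The chromosomal passenger complex corrects faulty attachments and joins Aurora B kinase (Aurkb) to its scaffold Incenp, survivin (Birc5) and borealin (Cdca8). All 4 genes had an unadjusted p under 0.05 and no overlap of the groups, with a median of 2.51. Aurkb measured 2.80, 2.90 and 0.00666 in MSC and 16.6, 15.9 and 17.3 in TAC. The TAC libraries were nearly equal, and MSC replicate 3 had no read. The means were 1.90 ± 1.64 in MSC and 16.6 ± 0.708 in TAC (SD, n = 3), with a fitted log2 fold change of 2.84 ± 0.64 (SE) and an adjusted p of 0.148, and the value in replicates 1 and 2 was 2.16. Birc5 measured 3.22, 3.71 and 1.98 in MSC and 22.6, 23.2 and 20.02 in TAC. All TAC values lay several times above all MSC values, and its means were 2.97 ± 0.89 in MSC and 21.9 ± 1.68 in TAC (SD, n = 3). The fit gave a log2 fold change of 2.55 ± 0.41 (SE) and an adjusted p of 0.0672 (0.0489 with the replicate block). Incenp measured 34.6, 31.4 and 25.2 in MSC and 105, 104 and 48.5 in TAC. It had the smallest fitted fold change of the complex, with TAC replicate 3 well below the other TAC libraries. Its means were 30.4 ± 4.80 in MSC and 85.8 ± 32.4 in TAC (SD, n = 3), with a fitted log2 fold change of 1.40 ± 0.37 (SE) and an adjusted p of 0.188. Cdca8 had a fold change of 2.46 in the fit and 1.97 in replicates 1 and 2.

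The spindle checkpoint genes had a median of 2.64 in the fit, the highest of the groups, but 1.98 in replicates 1 and 2, where it was not the highest. Of these 5 genes Bub1 and Bub1b had no read and Ttk 1 read in MSC replicate 3. Bub1, a kinase that recruits the other checkpoint proteins to kinetochores, measured 2.19, 1.62 and 0.00666 in MSC and 13.2, 11.3 and 21.8 in TAC. MSC replicate 3 had no read while TAC replicate 3 was the highest library. The means were 1.27 ± 1.13 in MSC and 15.4 ± 5.56 in TAC (SD, n = 3), with a fitted log2 fold change of 2.96 ± 0.62 (SE) and an adjusted p of 0.123. In replicates 1 and 2 its log2 fold change was 2.19. Bub3, the partner that brings BUB1 and BUBR1 to the kinetochore, measured 10.98, 11.1 and 42.6 in MSC and 20.6, 23.98 and 42.2 in TAC. It was higher in TAC in replicates 1 and 2 and level between the groups in replicate 3. The means were 21.6 ± 18.2 in MSC and 28.9 ± 11.6 in TAC (SD, n = 3), with a fitted log2 fold change of 0.63 ± 0.58 (SE) and an adjusted p of 0.727. Bub1b, for BUBR1, measured 18.4, 14.4 and 0.00666 in MSC and 68.3, 66.1 and 14.8 in TAC, so the TAC replicate 3 value fell within the MSC range. Mad2l1, for the checkpoint protein MAD2, and Ttk, for the kinase MPS1 at the top of the pathway, had log2 fold changes of 1.39 and 2.65 without overlap of the groups, and that of Ttk was 2.34 in replicates 1 and 2.

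At the centromere and kinetochore, 7 of 9 genes had an unadjusted p under 0.05, with a median of 2.04. Cenpa, for the histone H3 variant that defines the centromere, measured 13.4, 10.8 and 14.7 in MSC and 43, 43.4 and 53.4 in TAC. Its replicate 3 values stayed near the others in both groups. The means were 12.99 ± 1.98 in MSC and 46.6 ± 5.88 in TAC (SD, n = 3), with a fitted log2 fold change of 1.77 ± 0.29 (SE) and an adjusted p of 0.0709 (0.0442 with the replicate block). The 4 subunits of the NDC80 complex, the microtubule-binding part of the kinetochore, had fold changes of 1.60 for Ndc80, 1.85 for Nuf2, 2.27 for Spc24 and 2.04 for Spc25, and none overlapped between the groups. Ndc80 itself measured 3.41, 4.78 and 1.87 in MSC and 13.6, 14.8 and 7.90 in TAC. The lowest TAC value was that of replicate 3 and still exceeded the MSC values. Its means were 3.35 ± 1.46 in MSC and 12.1 ± 3.67 in TAC (SD, n = 3), with a fitted log2 fold change of 1.60 ± 0.50 (SE) and an adjusted p of 0.274.

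Cenpe and Cenpf gave the largest and the smallest fitted fold change of the kinetochore genes. Cenpe, a kinesin that moves chromosomes to the spindle equator, measured 21.4, 22.4 and 0.00666 in MSC and 93.8, 94.8 and 17.9 in TAC. In MSC replicate 3 it had no read, and TAC replicate 3 lay under MSC replicates 1 and 2. The means were 14.6 ± 12.6 in MSC and 68.8 ± 44.1 in TAC (SD, n = 3), with a fitted log2 fold change of 2.78 ± 1.28 (SE) and an adjusted p of 0.457. Cenpf, a large kinetochore protein also called mitosin, measured 39.9, 45 and 15.9 in MSC and 189, 181 and 15.3 in TAC. Both replicate 3 libraries were low and level with each other. Its means were 33.6 ± 15.6 in MSC and 128 ± 98.1 in TAC (SD, n = 3), with a fitted log2 fold change of 1.38 ± 0.96 (SE) and an adjusted p of 0.638. In replicates 1 and 2 the fold changes were alike, at 2.06 for Cenpe and 2.10 for Cenpf. Knstrn and Ska1, which help kinetochores hold microtubules, had fold changes of 2.45 and 2.14, and Ska1, without a read in MSC replicate 3, had 1.95 in replicates 1 and 2.

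Of the 5 genes of anaphase onset and cohesion, 4 had an unadjusted p under 0.05 and the median was 1.79. Cdc20, the APC/C coactivator that the checkpoint restrains, measured 7.28, 5.33 and 5.44 in MSC and 24.02, 27.9 and 18.4 in TAC. All TAC values exceeded all MSC values, with means of 6.02 ± 1.09 in MSC and 23.4 ± 4.76 in TAC (SD, n = 3). The fit gave a log2 fold change of 1.79 ± 0.36 (SE) and an adjusted p of 0.115. Ube2c, the ubiquitin-conjugating enzyme of the APC/C, had a fold change of 2.33 with an adjusted p of 0.0744. Pttg1, securin, the inhibitor of separase, was the exception. It measured 2.66, 2.67 and 14.4 in MSC and 3.53, 5.01 and 11.9 in TAC. Replicate 3 was the highest library in both groups, and the groups overlapped. Its means were 6.57 ± 6.76 in MSC and 6.83 ± 4.50 in TAC (SD, n = 3), with a fitted log2 fold change of 0.26 ± 0.75 (SE) and an adjusted p of 0.941, and it was the gene whose difference changed sign under 4 of the 18 alternative settings.

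Espl1, separase itself, had a fold change of 1.72 and an adjusted p of 0.0908. Sgol1, shugoshin, which shields centromeric cohesin until anaphase, measured 2.43, 1.88 and 0.00666 in MSC and 9.92, 11.5 and 12.9 in TAC. The TAC values were close together, and MSC replicate 3 had no read. The means were 1.44 ± 1.27 in MSC and 11.4 ± 1.48 in TAC (SD, n = 3), with a fitted log2 fold change of 2.53 ± 0.61 (SE) and an adjusted p of 0.168, against 1.90 in replicates 1 and 2.

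All 5 genes of spindle assembly had an unadjusted p under 0.05 and no overlap, with a median of 2.10. Spag5, astrin, which holds the spindle and its kinetochore fibers together, was the second gene past the adjusted threshold. It measured 7.36, 7.77 and 6.68 in MSC and 33.9, 35.1 and 33.9 in TAC. Within each group the 3 libraries differed by little, replicate 3 included. The means were 7.27 ± 0.55 in MSC and 34.3 ± 0.684 in TAC (SD, n = 3), with a fitted log2 fold change of 2.10 ± 0.30 (SE) and an adjusted p of 0.0455. Its adjusted p lay, across these alternatives, between 1.38e-11 and 1. It missed 0.05 in the settings in which Cdk1 did, and also with a pseudocount of 0.25 and with no filter on low values. Aspm, a spindle pole protein, measured 15.96, 16.3 and 0.00666 in MSC and 76.3, 76.3 and 21.8 in TAC. MSC replicate 3 had no read, and TAC replicate 3 was the TAC library nearest to the other MSC libraries. The means were 10.8 ± 9.31 in MSC and 58.1 ± 31.4 in TAC (SD, n = 3), with a fitted log2 fold change of 2.95 ± 1.14 (SE) and an adjusted p of 0.37, against 2.17 in replicates 1 and 2. Nusap1, which bundles microtubules near chromatin, measured 6.08, 5.998 and 17.8 in MSC and 21.8, 26.4 and 20.8 in TAC. MSC replicate 3 lay just under TAC replicate 3. Its means were 9.96 ± 6.79 in MSC and 23.01 ± 2.95 in TAC (SD, n = 3), with a fitted log2 fold change of 1.29 ± 0.47 (SE) and an adjusted p of 0.344. Tpx2, which activates Aurora A, and Hmmr had fold changes of 2.49 and 2.08, and Tpx2 passed with the replicate block (adjusted p = 0.0351).

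All 4 genes of the central spindle and cytokinesis had an unadjusted p under 0.05 and no overlap, with a median of 2.53. Anln, anillin, the scaffold of the contractile ring, measured 8.23, 7.59 and 0.00666 in MSC and 34.1, 33.1 and 18.4 in TAC. MSC replicate 3 had no read, and TAC replicate 3 was the lowest TAC library. The means were 5.28 ± 4.58 in MSC and 28.5 ± 8.83 in TAC (SD, n = 3), with a fitted log2 fold change of 2.73 ± 0.88 (SE) and an adjusted p of 0.282, against 1.96 in replicates 1 and 2. Prc1, which crosslinks the antiparallel microtubules of the midzone, measured 13.6, 14.9 and 11.8 in MSC and 55.9, 50.4 and 26.8 in TAC. The MSC values were close together and all lay under TAC replicate 3. Its means were 13.4 ± 1.59 in MSC and 44.4 ± 15.4 in TAC (SD, n = 3), with a fitted log2 fold change of 1.59 ± 0.36 (SE) and an adjusted p of 0.148. Ect2, the RhoA exchange factor that starts furrowing, and Racgap1, its centralspindlin partner, had fold changes of 2.48 and 2.59. In replicates 1 and 2 both had 2.02.

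The condensin subunits, which compact mitotic chromosomes, had a median of 1.75, and 4 of 5 had an unadjusted p under 0.05. The subunits particular to condensin I had fold changes of 2.29 for Ncapg, 1.78 for Ncaph and 1.75 for Ncapd2. This order turned in replicates 1 and 2, with 1.77 for Ncapg, 2.09 for Ncaph and 2.05 for Ncapd2. The core ATPases, which condensin II shares, had 1.10 for Smc4 and 0.54 for Smc2. Ncapg measured 9.04, 6.04 and 0.00666 in MSC and 30.1, 25.3 and 9.25 in TAC. It had no read in MSC replicate 3, and the groups were apart by little. The means were 5.03 ± 4.60 in MSC and 21.6 ± 10.9 in TAC (SD, n = 3), with a fitted log2 fold change of 2.29 ± 0.93 (SE) and an adjusted p of 0.395. Smc2 measured 30.1, 30.98 and 29.7 in MSC and 57.3, 63.3 and 24.03 in TAC. The MSC libraries were nearly equal, and TAC replicate 3 lay below them. Its means were 30.3 ± 0.644 in MSC and 48.2 ± 21.2 in TAC (SD, n = 3), with a fitted log2 fold change of 0.54 ± 0.40 (SE) and an adjusted p of 0.667.

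**Figure D4:**
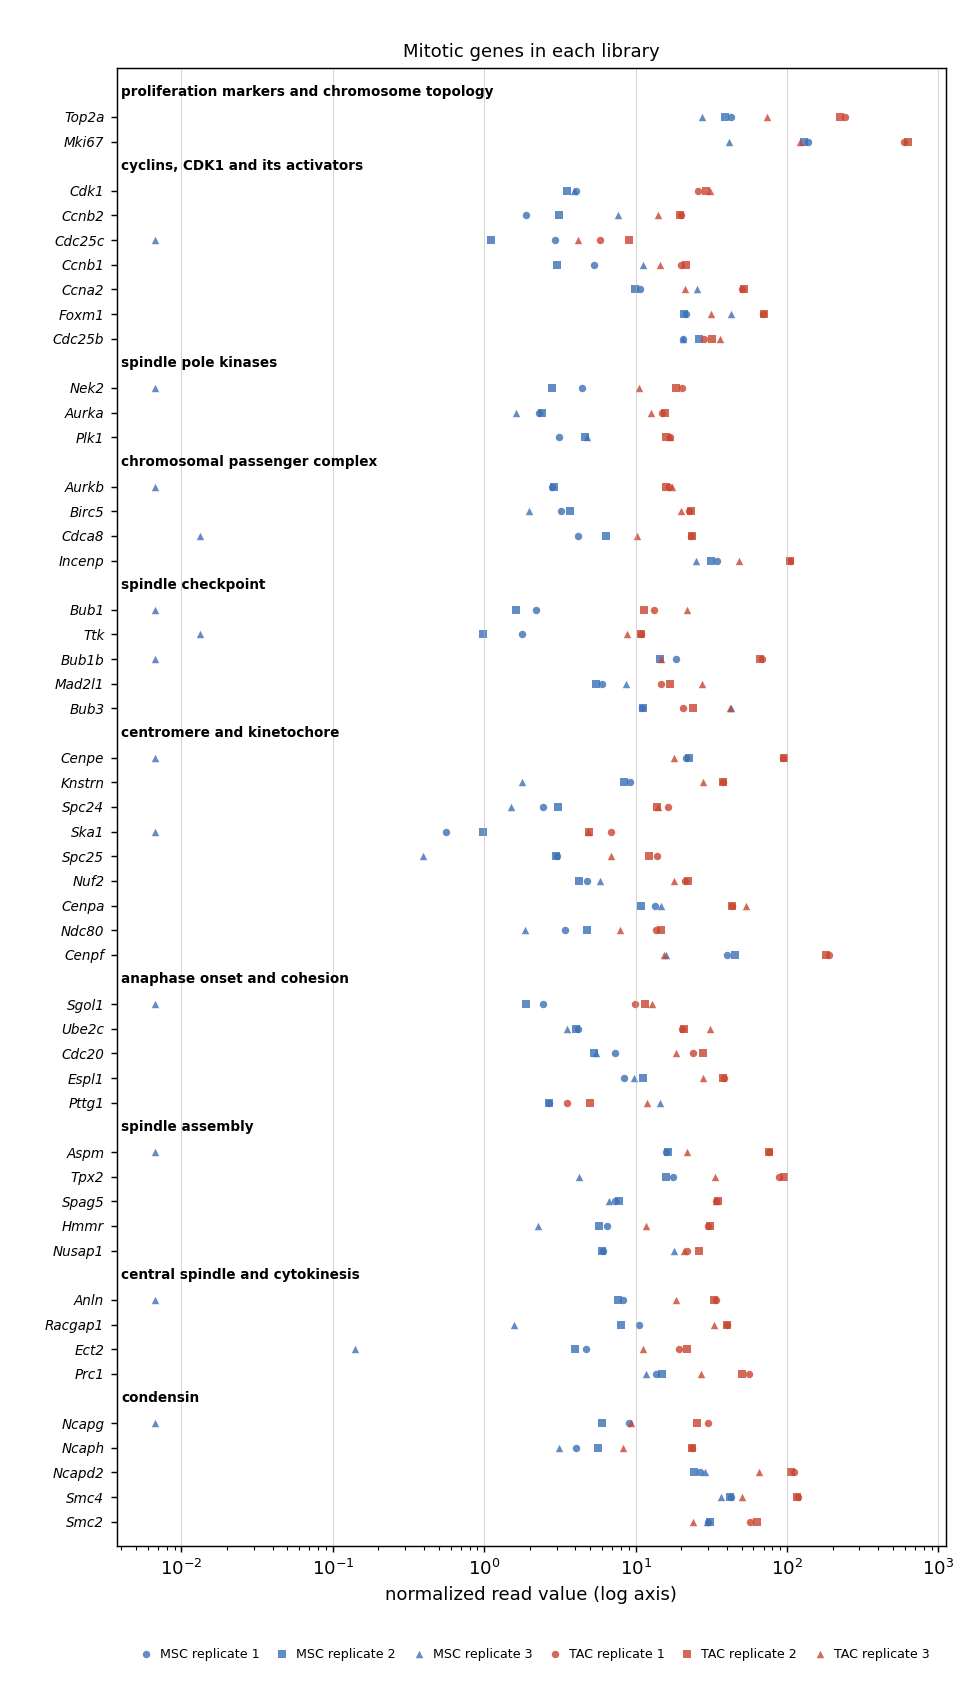
Normalized read value (horizontal log axis) of each of the 49 genes in the 3 MSC (blue) and 3 TAC (red) libraries, by function, with circles, squares and triangles for replicates 1, 2 and 3. In 40 genes every TAC point lies right of every MSC point, and the triangles at 0.00666 are the 11 genes with no read in MSC replicate 3.

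**Figure D5:**
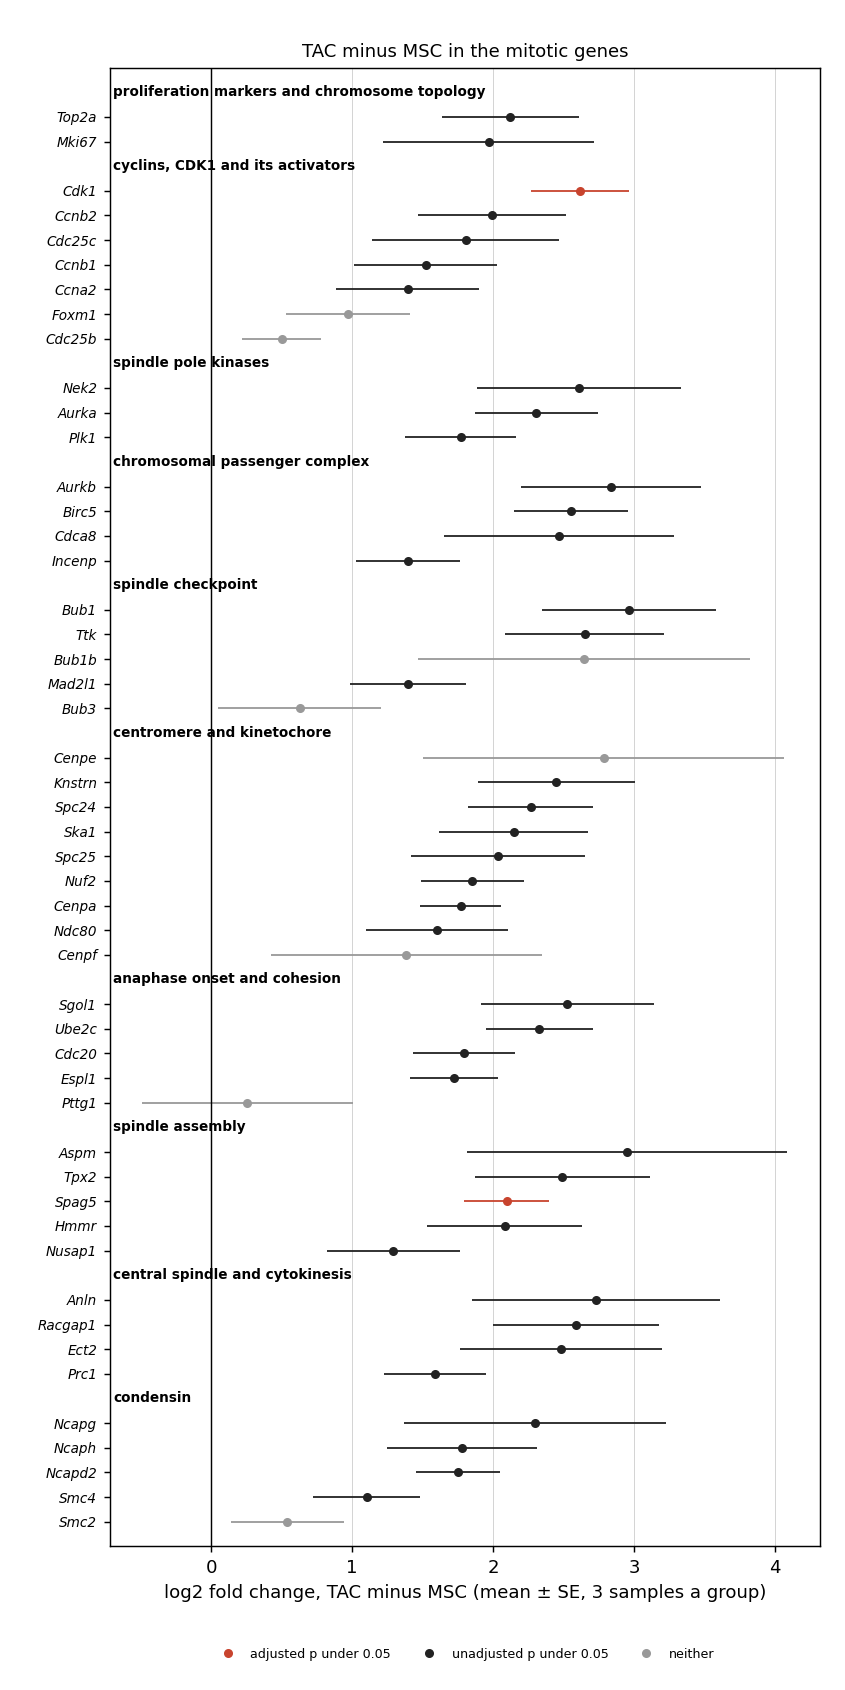
Fitted log2 fold change, TAC minus MSC, with its SE (horizontal axis, 3 samples a group) of each of the 49 genes by function. All 49 points lie above 0, from 0.26 for Pttg1 to 2.96 for Bub1, and the 2 red points, Cdk1 and Spag5, passed the adjusted threshold.

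Levels can be compared between genes only per length, here the value per kilobase of annotated exon in GENCODE M21. On this scale Mki67 had the highest mean in TAC, at 44.5 ± 28.1 (SD, n = 3). Top2a at 19.9 ± 10.2, Incenp at 19.8 ± 7.48 and Smc4 at 18.1 ± 7.32 followed. These SDs include the distance of replicate 3 from the other libraries, so orders within libraries are given too. Mki67 lay above Top2a, and Incenp above Smc4, in each TAC library, while Top2a lay under Incenp in TAC replicate 3 alone. Lowest were Cdc25c at 1.29 ± 0.503 and Ndc80 at 1.86 ± 0.566, with Cdc25c under Ndc80 in each TAC library. In MSC the highest means were 10.2 ± 5.29 for Mki67, 7.80 ± 0.644 for Smc4 and 7.03 ± 1.11 for Incenp, with Smc4 above Incenp in each library. The lowest were 0.189 ± 0.18 for Ttk and 0.194 ± 0.184 for Ska1, whose order turned between libraries. The lead of Mki67 in MSC was that of replicates 1 and 2, at 13.6 and 12.9, while in MSC replicate 3 it was 4.13 and ranked 12 of the 49, under Foxm1 at 7.45 and Pttg1 at 7.19 among others. In TAC replicate 3 Mki67, at 12.1, was close to Ube2c, at 11.9. The spans of 26 of the 49 genes overlap that of another annotated gene, Cdc20 that of Elovl1 and Ccna2 that of Exosc9 among them. The use of strand in counting is not given in the sources used here, so reads of such pairs may not be separated.

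Another 118 mitotic genes, listed from general knowledge, showed how far the pattern reached. None passed the adjusted threshold (limma). At an unadjusted p under 0.05, 48 were higher in TAC and none was lower, beside 5.42% of all genes tested higher in TAC. The counts of the lists that follow are to be read beside this share. The median of the 118 was 1.23, with 98 above 0. Among 31 other centromere and kinetochore genes the median was 1.44 and 15 had an unadjusted p under 0.05. The values ran from -0.12 for Cenpt, of the inner kinetochore, to 2.96 for Cenpm, also of the inner kinetochore, which had no read in MSC replicate 3 and 2.20 in replicates 1 and 2. Among 31 other genes of mitotic entry the median was 1.71 and 19 had an unadjusted p under 0.05, from -0.70 for Lin37, of the MuvB core, to 3.004 for Depdc1a. Lin37 had -0.025 and Depdc1a 2.54 in replicates 1 and 2. Among 26 other spindle, cytokinesis and condensin genes the median was 0.79 and 9 had an unadjusted p under 0.05, from -0.41 for Clasp2, a microtubule stabilizer, to 2.91 for Tacc3, which crosslinks kinetochore fibers and had 1.88 in replicates 1 and 2. The median of the 118 was 0.83 in replicates 1 and 2.

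The lowest of these medians, 0.28, was that of 30 other checkpoint, APC/C and cohesion genes. Of the 30, 5 were higher in TAC at an unadjusted p under 0.05, beside 5.42% of all genes tested. The 30 genes ran from -0.91 for Anapc5 to 2.63 for Sgol2a, a shugoshin. The 12 core subunits of the APC/C ran from -0.91 for Anapc5 to 0.31 for Cdc27, with a median of 0.029, and none had an unadjusted p under 0.05. The coactivator and the E2 enzyme that work with this core, Cdc20 and Ube2c, had 1.79 and 2.33. The 5 cohesin subunits ran from -0.036 for Stag1 to 1.57 for Rad21, none with an unadjusted p under 0.05, and Rad21 had 0.95 in replicates 1 and 2. Within replicates 1 and 2 alone, Rad21, Smc3, Smc1a and Stag2 passed the adjusted threshold, higher in TAC, and Stag1 did not (limma). Of the APC/C core, Anapc5 passed there with a lower level in TAC, and Anapc1, Anapc13, Cdc16, Cdc23 and Cdc27 with a higher. In that fit 21.4% of all genes tested passed with a higher level in TAC. These complexes were singled out after their values were seen. In lists this short, a count of none at an unadjusted p under 0.05 lies near the 5.42% of all genes tested. It is therefore no result about the complexes. For comparison, 24 genes of DNA replication licensing and initiation, which act from late mitosis through S phase, had a median of 1.25, with 12 at an unadjusted p under 0.05, from -0.051 for Orc3 to 2.80 for Dbf4, and none past the adjusted threshold. Orc3 had 0.23 and Dbf4 1.98 in replicates 1 and 2.

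Of the markers of other cell types, only smooth muscle and pericyte genes passed the adjusted threshold. Of 11 tested dental epithelium markers all had a fold change above 0 and 2 an unadjusted p under 0.05. The summed value of this list was 3666, 3606 and 299.7 in the MSC libraries and 3284, 3356 and 2163 in the TAC libraries. In MSC replicate 3, 7 of the 12 listed genes had no read, the adhesion genes Epcam and Cdh1 among them. The keratins Krt5 and Krt14 went the other way, at 15 and 16.02 there against 7.75 and 10.2 for Krt5 and 12.9 and 8.84 for Krt14 in MSC replicates 1 and 2. In replicates 1 and 2 the sum was lower in TAC, although 9 of the 11 tested genes were higher there, with a median log2 fold change of 0.63. Most of the sum came from the enamel matrix genes Amelx, Ambn and Enam, at 2503, 820 and 308 in MSC replicate 1. It therefore says little of the other listed genes. The sum of the 49 mitotic genes in replicates 1 and 2 was 666 and 648 in MSC and 2670.1 and 2703 in TAC. The 7 odontoblast markers summed to 14899, 14786 and 2364 in MSC and 16007, 15934 and 12522 in TAC, with no read for Dmp1 and Ibsp in MSC replicate 3. Most of that sum came from Col1a1 and Dspp, at 9568 and 4909 in MSC replicate 1. The 7 smooth muscle and pericyte markers were all lower in TAC, 4 past the adjusted threshold, with sums of 905, 905 and 1540.0 against 199.9, 198.8 and 152.7. Sums for 7 endothelial markers were 183.6 to 250.2 in MSC and 83.2 to 120.7 in TAC. Those for 7 macrophage markers were 61.0 to 126 and 35.8 to 93.4, and those for 6 Schwann and glia markers 46.9 to 161.5 and 24.3 to 51.6. Krt15 is not analysed here, and the part of these other cell types in the mitotic gene result was not tested.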

How the data were processed

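RNA of 3 MSC and 3 TAC samples, grouped by the labels, was aligned by the authors to mm10 with TopHat2 2.0.8 (CASAVA 1.8.2 and Partek are also named) and, by the methods, normalized as RPKM. The deposited table holds instead a signal that the authors did not divide by length, read here as an estimated read number plus 1, scaled per library. Of the low values 61.4% to 72.0% were whole within 0.02 of a read, so no count model was the main test. The design planned for RPKM suits this unit too. The counting tool is not given in the sources used here.

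Limma 3.58.1 (R 4.3.3) was fitted with a variance trend to log2(value + 1) of 15391 genes, those whose mean reached 1, as a two-sided contrast of TAC minus MSC. P-values were adjusted by Benjamini-Hochberg over all genes tested, with 0.05 as threshold. The fit was tested on simulated data. The 49 genes, the other lists and the tests were chosen with earlier results of these data known. Genes named in full were those past the adjusted threshold, the largest and smallest fold change in each function group, and a list of standard mitotic genes.

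Replicates 1 and 2 differed beyond sampling noise (mean chi-square per gene 10.3 in MSC and 8.33 in TAC, genes with at least 20 reads). Deviations from the group mean correlated across genes at 0.477, 0.466 and 0.517 for samples that share a replicate number in the labels. Crossing replicates 1 and 2 gave 0.462 and 0.480, so these correlations do not tell numbers 1 and 2 apart. As replicate 3 stood apart in both groups, they can arise from the library sets and do not show that samples were paired. MSC and TAC samples also came from different mouse lines, so the replicate block is given only as an alternative. The methods give 3 mice a group, but the labels do not tie samples to animals, so p-values cover only the spread between samples. Alternatives covered pseudocount, filter, scaling, variance model, replicate block, library set, voom on recovered reads and each library left out. Gene models are from GENCODE M21, with which 46 of the 49 genes shared coordinates once the deposited end was lowered by 1.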

Additional observations from a re-analysis of the deposited data

Results flagged for a closer look

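In 29 of the 49 mitotic genes the interaction of group and library set was called (limma, adjusted p under 0.05), with an error taken from the spread between replicates 1 and 2 alone. Replicate 3 has 1 library in each group, so its own spread is not measured and these calls do not show a difference between the sets. The difference between TAC and MSC was smaller in replicate 3 in 15 and larger in 14. In 5 of the 15 the replicate 3 libraries did not have the higher value in TAC. The difference in replicate 3 minus that in replicates 1 and 2, on the log2 scale, was -2.46 for Ccna2, -2.11 for Foxm1, -0.96 for Bub3, -2.15 for Cenpf and -1.25 for Smc2. The shares of all genes tested with a called difference, 23.3% smaller and 33.8% larger, were close to those of the 49, so the count is no result about these genes.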

How the results depend on the processing

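The direction of the 49 genes depended little on the processing and the count past the adjusted threshold depended on it strongly. Of 870 single-gene values under 18 alternatives, 739 kept their direction and side of the threshold, 109 passed it newly, 18 no longer passed and 4 turned sign. Against 2 of 49 genes called, the count was 1 with a pseudocount of 0.25 and 1 with no filter. Of all genes tested, 0.026% and 0.0211% passed there with a higher level in TAC. With quantile normalization the count was 5, against 0.138% of all genes tested. It was 0 with no variance trend, with replicates 1 and 2 averaged as 1 sample and with limma voom on recovered reads. In these last fits no gene tested passed with a higher level in TAC. At an unadjusted p under 0.05 these last fits gave 41, 25 and 39 of 49 higher in TAC, against 5.20%, 1.73% and 13.3% of all genes tested. The count was 6 with the replicate block, 40 with the library set as a term and 48 with replicates 1 and 2 only. The block changed no call among the 49 other than the 4 genes it added, Mki67, Birc5, Cenpa and Tpx2. Leaving out 1 library gave 0 to 18 called, the 18 without MSC replicate 3. Where the count was 0, no gene tested passed with a higher level in TAC. The unadjusted count, 41, was 25 with replicates 1 and 2 averaged and 29 to 43 with 1 library left out. The median log2 fold change, 2.04, was 1.42 with a pseudocount of 5, which shrinks low genes, and 1.74 to 2.25 with 1 library left out. Pttg1, at 0.26 in the fit, was -0.13 with voom and ran from -0.18 to 0.95 with 1 library left out. The cause of these changes was not tested unless named. Another scaling moved the median of all genes by less than 0.1. With 3 samples a group and 1 library of the second set in each, low values in MSC replicate 3 limit what can be said of the 13 genes with at most 1 read there.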

Other observations

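Ratios of the deposited values within a library were taken for some partners of 1 complex or pathway, chosen after their values were seen and not tested. They are not divided by length, so only libraries can be compared. Ccnb1 over Cdk1, the cyclin over its kinase, was 1.31, 0.860 and 2.87 in the MSC libraries, in replicate order, and 0.775, 0.733 and 0.471 in TAC, so every TAC ratio was the lower. Ncaph over Smc2, a condensin I subunit over the shared core, was 0.135, 0.182 and 0.105 in MSC and 0.412, 0.374 and 0.344 in TAC, so every TAC ratio was the higher. Cdc20 over Bub3, the target of the checkpoint over one of its parts, was 0.663, 0.479 and 0.128 in MSC and 1.17, 1.16 and 0.437 in TAC, where replicate 3 of TAC lay within the MSC range.

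The 8 subunits of augmin, which nucleates microtubules within the spindle, ran from -0.21 for Haus2 to 1.61 for Haus3, and 1 of them had an unadjusted p under 0.05. Haus3 had no read in MSC replicate 3, and in replicates 1 and 2 Haus3 had 0.66 and Haus2 0.093. The 3 subunits particular to condensin II ran from 0.49 for Ncaph2 to 2.20 for Ncapg2, and none had an unadjusted p under 0.05. Ncapg2, also without a read there, had 1.59 in replicates 1 and 2. The 4 MuvB subunits measured ran from -0.70 for Lin37 to 1.67 for Lin9, with adjusted p-values from 0.388 to 0.983, and in replicates 1 and 2 Lin37 had -0.025 and Lin9 1.28. At an unadjusted p under 0.05, 5.42% of all genes tested were higher in TAC. In lists this short the counts for augmin and condensin II lie near that share and are no result about these complexes.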
